A study of Sus scrofa with 6 samples.

Results

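The transcription factors that pattern the Müllerian duct, the embryonic tube that becomes the oviduct, uterus and upper vagina, were followed in the ampulla of the pig oviduct, the segment where fertilisation takes place. The set was chosen by gene name and holds 9 genes: WT1, EMX2, PAX2, LHX1, SOX17, HOXA9, HOXA10, HOXA11 and MEIS1. Of these 9 genes, 8 had a row in the table of 35670 genes, and 5 (WT1, EMX2, PAX2, HOXA9 and MEIS1) had enough counts to be tested among 17920 genes. No row carried the symbol SOX17, so this HMG-box factor of epithelium and endothelium was not analysed here. Messenger RNA had been counted in 6 libraries of ampulla tissue from female pigs (Sus scrofa), 3 at the post-ovulatory stage and 3 at the early luteal stage. The labels give no breed, age, hormone treatment or animal number for either stage. Nothing in them says that the replicates are separate animals, so the p-values below describe variation among these libraries, part or all of which could be technical.

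In the embryo the duct is set up and elongated under PAX2, LHX1, EMX2 and WT1, which act in the intermediate mesoderm and the coelomic epithelium beside it. HOX genes then give the tube its regions along its length: HOXA9 is the paralogue classically assigned to the oviduct, HOXA10 to the uterus and HOXA11 to the lower uterus and cervix. MEIS1 is a homeodomain protein of the TALE class, whose members bind DNA together with HOX proteins.

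The ampulla carried WT1, EMX2 and MEIS1 in every library, PAX2 at levels that differed 34.6-fold between libraries, and HOXA9 at 4 to 36 reads per library. HOXA10 and HOXA11 were at or near 0 reads, and LHX1 was at or near the limit of detection in 5 of 6 libraries. None of the tested factors passed the test between the stages. EdgeR's quasi-likelihood test with Benjamini-Hochberg adjustment called 0 of the 5, and 0 of all 17920 genes (0%). At an unadjusted p under 0.05 the counts were 0 of 5 and 1275 of 17920 (7.11%). DESeq2 called 0 of the 5 and 175 of 17740 genes (0.986%), and limma voom called 0 of the 5 and 0 of all genes. In 0 of the 5 did the stages separate without overlap, against 17.2% of all tested genes (7.58% with the early luteal libraries above, 9.60% with them below). Among the factors too low to be tested only LHX1 separated, with its early luteal libraries at or under the limit of detection.

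Library totals ran from 7370723 to 30954222 counts, and levels are given as CPM (counts scaled to the depth of the library). CPM is not divided by transcript length, so levels are compared between libraries and not between genes. The floor of detection was set at 3 counts in a library, which stood for 0.0957 to 0.404 CPM, counting error only. Early luteal replicate 2 was an outlying library, at 176 on a first principal component that placed the other 5 between -51.03 and 2.34. Tissue identity was checked on marker lists. The oviduct glycoprotein OVGP1 and the ciliary regulator FOXJ1 were present in all 6 libraries, at 155.7 CPM or more and 78.8 CPM or more. Granulosa and luteal cell markers summed to 2.63 CPM or less in each library, over the 6 of 9 genes with a row. Of the mesothelial markers, 5 of 10 had a row and their summed level was 58.3 to 149.8 CPM. UPK1B made up most of it (56.1 to 143 CPM), UPK3B lay at 0.674 to 17.8 CPM, and CALB2, BNC1 and KLK11 lay at 0.943 CPM or less. In tissue RNA, fewer cells of a type and less RNA per cell cannot be told apart.

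WT1, a zinc-finger factor of the urogenital ridge, was the steadiest of the tested factors. It lies on chromosome 2 (28411467 to 28456007, Sscrofa11.1, RefSeq). It measured 354, 398 and 462 CPM in post-ovulatory replicates 1, 2 and 3. In early luteal replicates 1, 2 and 3 it stood at 382, 481 and 459 CPM. The stages overlapped, and the highest library exceeded the lowest by a factor of 1.36. The early luteal mean was 440.5 ± 51.8 CPM and the post-ovulatory mean 405 ± 53.9 CPM (SD, n = 3 each). The log2 fold change, early luteal over post-ovulatory, was 0.12 ± 0.26 (SE; edgeR adjusted p = 0.921). Its 95% interval covered folds from 0.726 to 1.64. Its fitted biological coefficient of variation, the replicate spread beyond counting error, was 0.268, at percentile 5.50 of all tested genes.

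The steadiness of WT1 stood beside marker lists whose summed levels did not hold steady. Single markers could be as steady within a stage. The stromal gene DCN had a biological coefficient of variation of 0.266, at percentile 4.76, though its stages did not overlap. The summed level of 9 smooth muscle markers ran from 2969.5 to 5798 CPM in post-ovulatory and from 1047 to 9671 CPM in early luteal libraries. Over 8 stromal markers with a row the sums were 1023 to 1977 CPM and 596 to 814 CPM, and the stages did not overlap. COL1A1, a fibrillar collagen picked from this list, measured 496, 595 and 184 CPM in the post-ovulatory replicates and 91.1, 134 and 104 CPM in the early luteal ones. Of the 8 markers, 7 had a lower and 1 a higher early luteal estimate, and in 5 the stages did not overlap (17.2% of all tested genes). PDGFRA, PDGFRB and DPT overlapped. EdgeR called 0 of the 8, and DESeq2 called 2 (0.986% of all tested genes), among them COL1A1 (DESeq2 adjusted p = 0.00728). Ciliated epithelium sums were 1347 to 2402 CPM and 1849 to 2009 CPM, and endothelial sums 346 to 559 CPM and 394 to 573 CPM. Both sums hid opposite changes in early luteal replicate 2. FOXJ1 measured 412, 78.8 and 409 CPM and CFAP43 136, 670 and 239 CPM in early luteal replicates 1, 2 and 3. PECAM1 measured 32.5, 12.4 and 27.4 CPM there, and EMCN, the largest part of the endothelial sum, 261, 432 and 223 CPM. The mean log2 CPM of each list, centred per gene, was lowest in early luteal replicate 2 (-0.52 ciliated, -1.26 endothelial). Of 10 endothelial markers, 8 had a lower early luteal estimate, as had 6 of 9 ciliated ones. Over 8 secretory epithelium markers with a row the sums were 1890 to 13042 CPM in post-ovulatory and 2788 to 4393 CPM in early luteal libraries. Of the 7 that were tested, 4 had a higher and 3 a lower early luteal estimate. The part of these cell types in the WT1 level was not tested.

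MEIS1, on chromosome 3 (75485024 to 75625855), measured 373, 603 and 569.5 CPM in the post-ovulatory replicates. The early luteal replicates held 557, 845 and 719 CPM. Early luteal replicate 1 lay below both post-ovulatory replicates 2 and 3, so the stages overlapped. The mean of the early luteal libraries was 707 ± 144 CPM and that of the post-ovulatory ones 515 ± 124 CPM (SD, n = 3). The log2 fold change was 0.46 ± 0.31 (SE; edgeR adjusted p = 0.758), with a 95% interval of folds from 0.846 to 2.23. MEIS1 was lowest in post-ovulatory replicate 1 and highest in early luteal replicate 2.

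EMX2, a homeobox factor needed for the urogenital tract, lies on chromosome 14 (127649675 to 127656972). Its post-ovulatory replicates stood at 65.8, 47.8 and 63.8 CPM and its early luteal replicates at 46.4, 134 and 67.6 CPM. A single library, early luteal replicate 2, lay well above the other 5, which ran from 46.4 to 67.6 CPM. The log2 fold change was 0.48 ± 0.40 (SE; edgeR adjusted p = 0.792). Without early luteal replicate 2 it was -0.055 ± 0.25 (edgeR adjusted p = 0.961). The 2 genes picked as nearest to EMX2 in pattern, by the measure given below, are high in that library by that choice. EIF3M, a subunit of a translation initiation factor, stood at 403 CPM there and at 143 to 213 CPM elsewhere, and the ribosomal protein gene RPS24 at 5790.4 CPM against 1851 to 2897 CPM. Over 50 ribosomal protein genes, 19 had their highest level in early luteal replicate 2, 16 in early luteal replicate 3 and 13 in post-ovulatory replicate 1. Their summed level in early luteal replicate 2 was 52776 CPM against 36595 to 48783 CPM in the other 5. The share of all genes highest in this outlying library was not counted, so the 19 of 50 have no background. A relation of EMX2 to these genes was not tested.

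PAX2, the paired-box factor of duct elongation that also marks secretory cells of the adult oviduct, varied most. It lies on chromosome 14 (111822334 to 111914950). Its levels were 2.82, 11.8 and 25.1 CPM in post-ovulatory replicates 1, 2 and 3. In early luteal replicates 1, 2 and 3 they were 1.22, 8.49 and 42.3 CPM, from 19, 63 and 637 counts. The lowest and the highest library were both early luteal, so the spread lay within the stage. The fitted biological coefficient of variation was 0.898, at percentile 96.3 of tested genes. Stage means were 17.3 ± 21.9 CPM and 13.3 ± 11.2 CPM (early luteal and post-ovulatory, SD, n = 3), and the log2 fold change of 0.38 ± 1.11 (SE; edgeR adjusted p = 0.946) had an interval of folds from 0.223 to 7.62. These libraries therefore set only wide bounds on a stage difference in PAX2. Without early luteal replicate 3 the log2 fold change was -1.49 (edgeR adjusted p = 0.818), without post-ovulatory replicate 1 it was -0.10 (adjusted p = 0.996), and without post-ovulatory replicate 3 it was 1.27 (adjusted p = 0.958).

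The order of the libraries for PAX2 was not that of OVGP1, the main secretory product. OVGP1 measured 7289.9 CPM, 155.7 CPM and 10669 CPM in the post-ovulatory replicates and 291 CPM, 1012 CPM and 2351 CPM in the early luteal ones. Post-ovulatory replicate 1 was thus second highest in OVGP1 and second lowest in PAX2. The smooth muscle score (mean log2 CPM of the list, centred per gene) was -0.12, 0.57 and -0.48 for the post-ovulatory and -1.81, 0.48 and 1.35 for the early luteal replicates. Early luteal replicate 1 was lowest and early luteal replicate 3 highest in both PAX2 and this score, while post-ovulatory replicate 3, second highest in PAX2, was second lowest in the score. The secretory epithelium score was 0.23, -0.60 and 0.67 for the post-ovulatory and -0.0054, -0.48 and 0.19 for the early luteal replicates. The part of tissue composition in PAX2 was not tested.

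**Figure D1:**
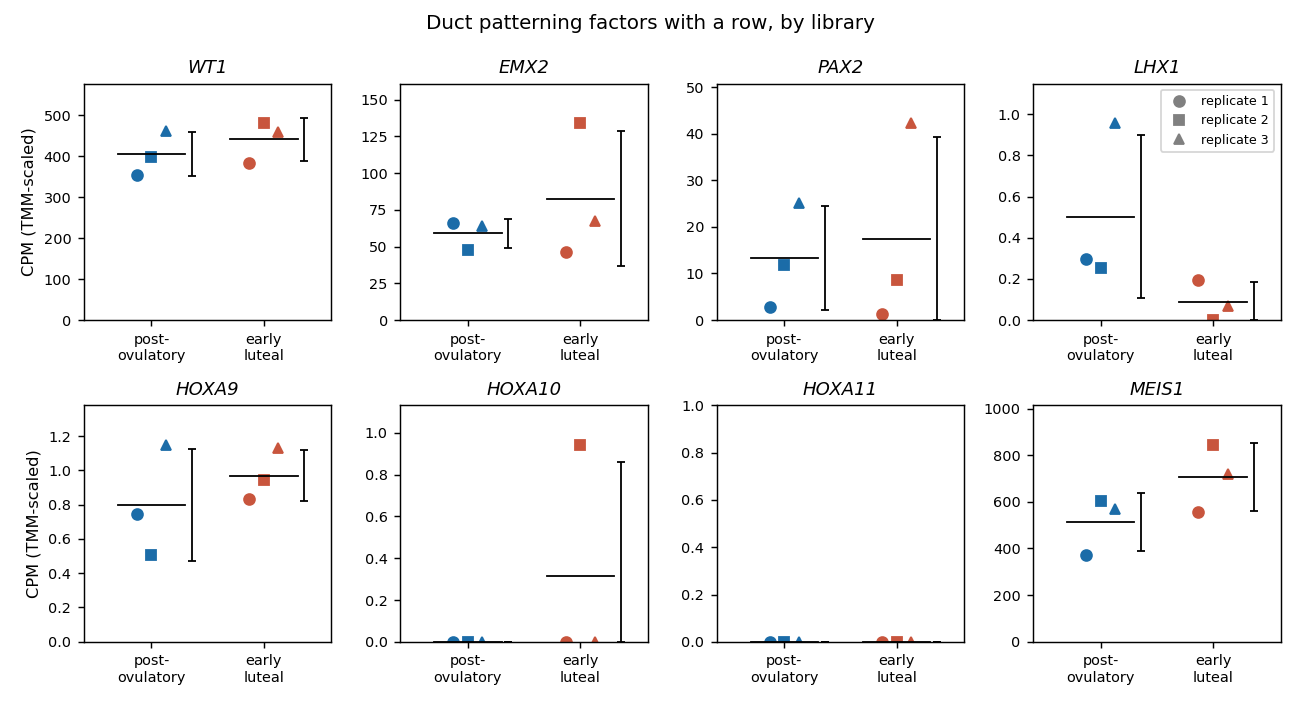
CPM of the 8 duct patterning factors with a row, 1 point per library (circle, square and triangle for replicates 1, 2 and 3), with the stage mean as a line and its SD as a bar cut at 0, each panel on its own linear axis from 0. WT1 and MEIS1 form bands with overlapping stages, PAX2 spreads from 1.22 to 42.3 CPM, EMX2 has 1 high library, and HOXA11 is at 0 throughout.

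**Figure D2:**
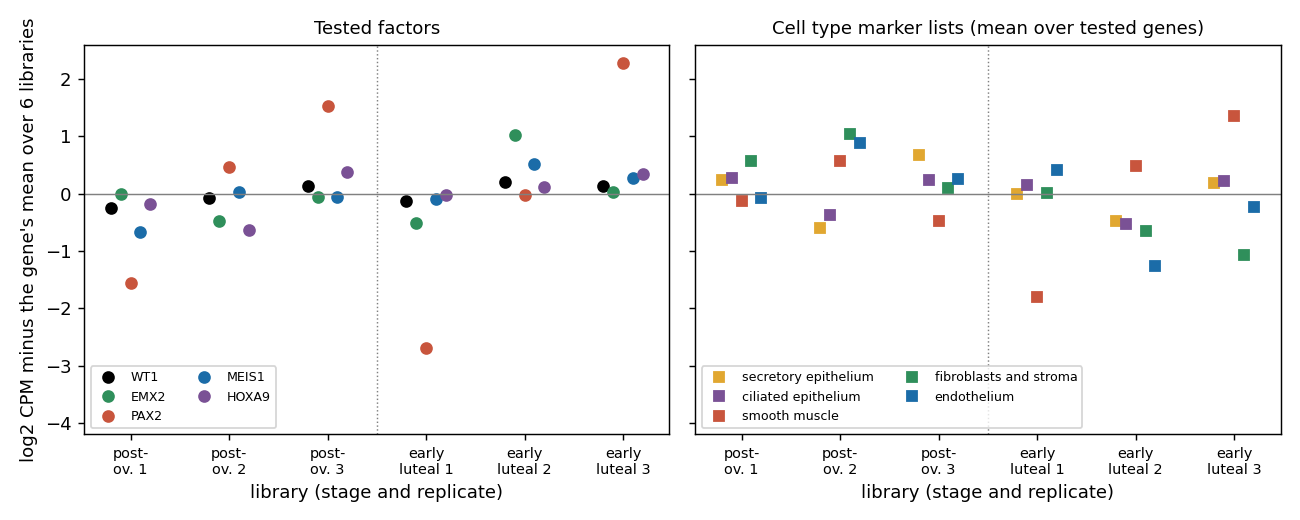
Log2 CPM of the 5 tested factors (left) and scores of 5 cell type marker lists (right) in each library, as the difference from the mean over all 6 libraries. PAX2 falls lowest in early luteal replicate 1 and rises highest in early luteal replicate 3, whereas WT1 stays close to the line in all 6 libraries.

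HOXA9, HOXA10 and HOXA11 are neighbours on chromosome 18, HOXA9 at 45404594 to 45411512, HOXA10 at 45393525 to 45403259 and HOXA11 at 45388523 to 45392190. HOXA9 was detected in all 6 libraries, by 10, 4 and 36 counts at the post-ovulatory and 13, 7 and 17 counts at the early luteal stage. These counts correspond to 0.743, 0.504 and 1.15 CPM and to 0.835, 0.943 and 1.13 CPM. The stages overlapped, with 0.969 ± 0.148 CPM for the early luteal mean and 0.799 ± 0.326 CPM for the post-ovulatory mean (SD, n = 3). The log2 fold change was 0.24 ± 0.70 (SE; edgeR adjusted p = 0.945), with an interval of folds from 0.390 to 3.59. At 4 counts, post-ovulatory replicate 2 had an exact Poisson 95% interval from 0.137 to 1.29 CPM, which spans the levels of the other 5 libraries.

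HOXA11 had 0 counts in all 6 libraries. By the floor of 3 counts, a count of 0 allows up to 0.0957 CPM in the deepest library, post-ovulatory replicate 3, and up to 0.404 CPM in early luteal replicate 2; the upper ends of the exact Poisson 95% intervals were 0.118 and 0.497 CPM. HOXA10 had 0 counts in 5 libraries and 7 counts, 0.943 CPM (exact Poisson 95% interval 0.379 to 1.94), in early luteal replicate 2. That library also held 152 rows with at least 7 counts there and 0 in the other 5, against 1 to 14 such rows in each other library. HOXA10 was 1 of these 152 rows. As the counting tool, its strand setting and its annotation are not given, reads lost to an overlapping or differently annotated gene were not tested.

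A ratio of 2 raw counts within a library does not depend on library scaling. Here, however, every numerator was 0 except that of HOXA10 in early luteal replicate 2. With a numerator of 0 the value is set by the added constant and the HOXA9 count, and so follows depth. With 0.5 added to each count, the log2 ratio of HOXA10 to HOXA9 ran from -6.19 to -3.17 in post-ovulatory libraries. The first value came from the deepest library (36 HOXA9 counts) and the second from the shallowest (4 HOXA9 counts). In early luteal replicates 1, 2 and 3 it was -4.75, 0 and -5.13. The stage means differed by 1.29 (exact two-sided permutation test, p = 0.7, n = 3 against 3, smallest possible p 0.1). For HOXA11 to HOXA9 the difference was -0.013 (exact permutation p = 1), a value set by the counts of HOXA9 alone. The permutation results of both ratios therefore say nothing about HOXA10 or HOXA11 between the stages.

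The wider HOX complement showed where along the clusters reads were found. Of 34 HOX genes with a row, 24 had paralogue numbers 1 to 9, and 18 of these 24 had more than 3 counts in every library. These were 4 of 8 with numbers 1 to 3, 12 of 13 with numbers 4 to 8 and 2 of 3 with number 9. HOXB1 was at 0 in all 6 libraries. Of the 10 with numbers 10 to 13, 0 had more than 3 counts in every library, 7 were at 0 in all 6 libraries, and the highest count in any library was 12. Among all rows with a symbol, 4.27% were at 0 in all 6 libraries. The 3 of these 10 with any read were HOXA10, HOXC13 (1 count in each of 2 libraries) and HOXD10 (0 to 12 counts). The other paralogues of HOXA9 with a row were HOXD9, at 1.49, 3.78 and 2.27 CPM across post-ovulatory libraries and 0.835, 3.77 and 1.99 CPM across early luteal ones, and HOXC9, which had 0 counts in post-ovulatory replicate 2 and 30 counts in early luteal replicate 3.

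**Figure D3:**
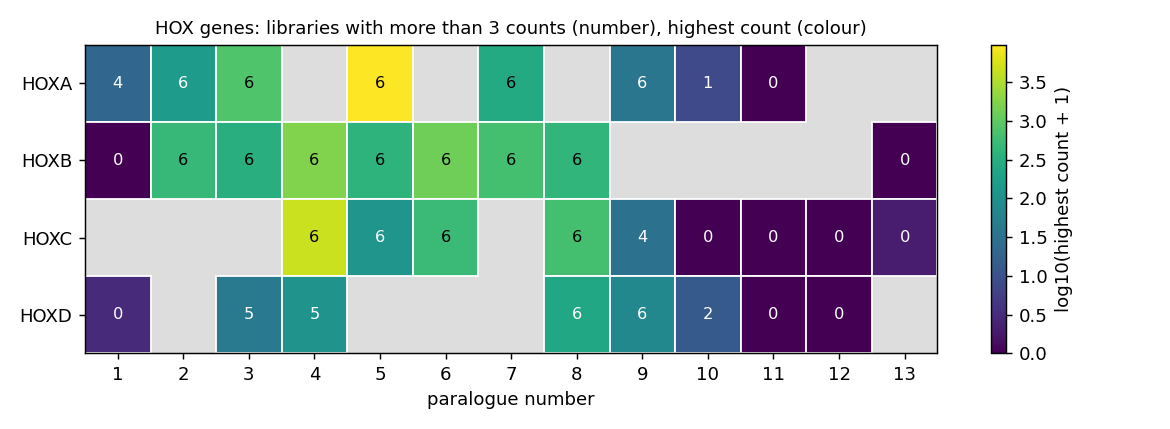
HOX genes by cluster (rows) and paralogue number (columns), coloured by log10 of the highest count in any library plus 1; the printed number is how many of the 6 libraries had more than 3 counts, and grey marks genes without a row or that do not exist. More than 3 counts in all libraries are seen for 4 of 8 genes with numbers 1 to 3 and for 12 of 13 with numbers 4 to 8. Number 9 is sparse and numbers 10 to 13 are nearly empty in all clusters with a row.

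None of the other HOX genes passed the test between the stages. Of 36 listed, 31 had a row and 20 were tested, 7 estimated higher and 13 lower at the early luteal stage. Their median log2 fold change was -0.17, beside -0.026 for all genes tested. EdgeR and DESeq2 called 0 of them (0 at an unadjusted p under 0.05 in edgeR), and the stages did not overlap in 3 of 20, against 17.2% of all tested genes. Those 3 were HOXD3 (0.458 ± 0.293 CPM early luteal against 1.35 ± 0.536 CPM post-ovulatory), HOXC5 (2.44 ± 0.276 against 4.45 ± 1.17 CPM) and HOXA7 (5.05 ± 2.67 against 8.73 ± 0.556 CPM). HOXA7, the nearest measured neighbour of HOXA9 towards the anterior end, had a log2 fold change of -0.78 ± 0.53 (SE; edgeR adjusted p = 0.762). HOXB4 stood at 80.02 ± 30.9 against 51.9 ± 16.9 CPM with overlap. HOXA5 and HOXC4, named for the highest mean CPM of the list without regard to length, lay at 255 ± 66.9 against 262 ± 82.0 CPM and at 138 ± 18.0 against 143 ± 9.21 CPM.

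LHX1, the LIM-homeobox factor required for the duct to form, lies on chromosome 12 (38450708 to 38457583) and was too low for the test. It had 4, 2 and 30 counts at the post-ovulatory and 3, 0 and 1 counts at the early luteal stage, that is 0.297, 0.252 and 0.957 CPM and 0.193, 0 and 0.0664 CPM. The early luteal libraries lay below the post-ovulatory ones without overlap, as in 9.60% of all tested genes. However, all 3 early luteal libraries were at or under the floor of 3 counts. Most of the reads came from the deepest library, post-ovulatory replicate 3, whose exact Poisson 95% interval was 0.646 to 1.37 CPM. The intervals of post-ovulatory replicates 1 and 2 (0.0810 to 0.761 and 0.0305 to 0.911 CPM) both covered the level of early luteal replicate 1, and apart from post-ovulatory replicate 3 a stage difference was not detectable at this depth.

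The partners of HOX proteins were measured more deeply. Of 10 TALE genes other than MEIS1, 9 had a row and were tested, 3 with a higher and 6 with a lower estimate and a median log2 fold change of -0.21. EdgeR and DESeq2 called 0 of the 9 (0 at an unadjusted p under 0.05 in edgeR). PBX2, a PBX protein that pairs with HOX and MEIS proteins, stood at 120.5, 153.5 and 129 CPM across post-ovulatory libraries and 98.1, 52.5 and 101.7 CPM across early luteal ones. All 3 early luteal libraries lay below the post-ovulatory ones, as in 9.60% of all tested genes, and PBX2 was the 1 of 9 in the list without overlap, against 17.2% of all tested genes in either direction (log2 fold change -0.67 ± 0.31, SE; edgeR adjusted p = 0.685). MEIS2, the closest relative of MEIS1 in the list, stood at 151 ± 42.7 against 159.5 ± 24.7 CPM. TGIF1, a TALE repressor, stood at 111.7 ± 18.0 against 90.8 ± 23.5 CPM, PKNOX1 at 41.2 ± 12.0 against 51.8 ± 15.3 CPM and TGIF2 at 15.6 ± 8.01 against 19.6 ± 3.11 CPM, all with overlap.

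Among other regulators of the duct, 25 of 29 had a row and 16 were tested, 8 with a higher and 8 with a lower estimate (median 0.15). EdgeR called 0 and counted 2 at an unadjusted p under 0.05 (7.11% over all tested genes), DESeq2 called 1 (0.986%), and in 4 of 16 the stages did not overlap, where 17.2% of all tested genes did the same. CITED2, a transcriptional cofactor, was called by DESeq2 (adjusted p = 0.0253) and not by edgeR (adjusted p = 0.594). It stood at 11.7, 18.9 and 17.4 CPM across post-ovulatory libraries and 23.4, 95.4 and 73.7 CPM across early luteal ones (log2 fold change 2.00 ± 0.50, SE). GATA6, a zinc-finger factor, stood at 146 ± 27.1 against 93.9 ± 11.8 CPM and FOXA2, a forkhead factor of tract epithelium, at 58.6 ± 4.10 against 38.2 ± 9.73 CPM. In both, every early luteal library lay above every post-ovulatory one, without passing edgeR (adjusted p = 0.685 for both). CTNNB1 and NR2F1, named for their CPM, stood at 386 ± 95.2 against 312 ± 22.0 CPM and 162 ± 93.5 against 107.6 ± 22.5 CPM, each with overlap. EMX1, the relative of EMX2, was at 0 in all 6 libraries.

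Of the ligands, receptors and retinoid genes that act on the duct, 19 of 20 had a row and 16 were tested, 6 with a higher and 10 with a lower estimate (median -0.042). EdgeR called 0 and counted 3 at an unadjusted p under 0.05 (7.11% over all tested genes), DESeq2 called 1 (0.986%), and the stages did not overlap in 4 of 16 (17.2%). The DESeq2 call was WNT7A, an epithelial WNT ligand that maintains HOXA gene expression in the developing tract. It had 25, 25 and 82 counts at the post-ovulatory and 3, 0 and 3 counts at the early luteal stage, that is 1.86, 3.15 and 2.62 CPM against 0.193, 0 and 0.199 CPM. All early luteal libraries were at or under the floor, so WNT7A passed the count filter through its post-ovulatory libraries alone. It was named for the lowest p of its list. Over the pooled reads the post-ovulatory level was 15.9 times the early luteal one (exact binomial 95% interval 7.10 to 44.05, counting error only). Pooling leaves out the variation between libraries, and 82 of the 132 post-ovulatory reads came from replicate 3. The interval is thus no test between the stages. WNT7A passed in DESeq2 (adjusted p = 0.00784) and not in edgeR's quasi-likelihood test (adjusted p = 0.554).

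None of the retinoid genes of the same list passed edgeR or DESeq2. The retinoic acid receptor RARA stood at 23.03 ± 11.8 CPM (early luteal) against 47.05 ± 4.84 CPM (post-ovulatory) without overlap (log2 fold change -1.02 ± 0.43, SE; edgeR adjusted p = 0.685). Its partner RXRA stood at 36.6 ± 5.68 against 25.4 ± 3.23 CPM, also without overlap, the early luteal libraries lying above (edgeR adjusted p = 0.711). CRABP2, a carrier of retinoic acid, stood at 4.14 ± 3.74 against 18.4 ± 14.6 CPM with overlap (edgeR adjusted p = 0.685). The enzymes that make retinoic acid, ALDH1A1 and ALDH1A2, had 507 ± 87.6 against 478 ± 123 CPM and 371 ± 58.8 against 349 ± 84.1 CPM.

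**Figure D4:**
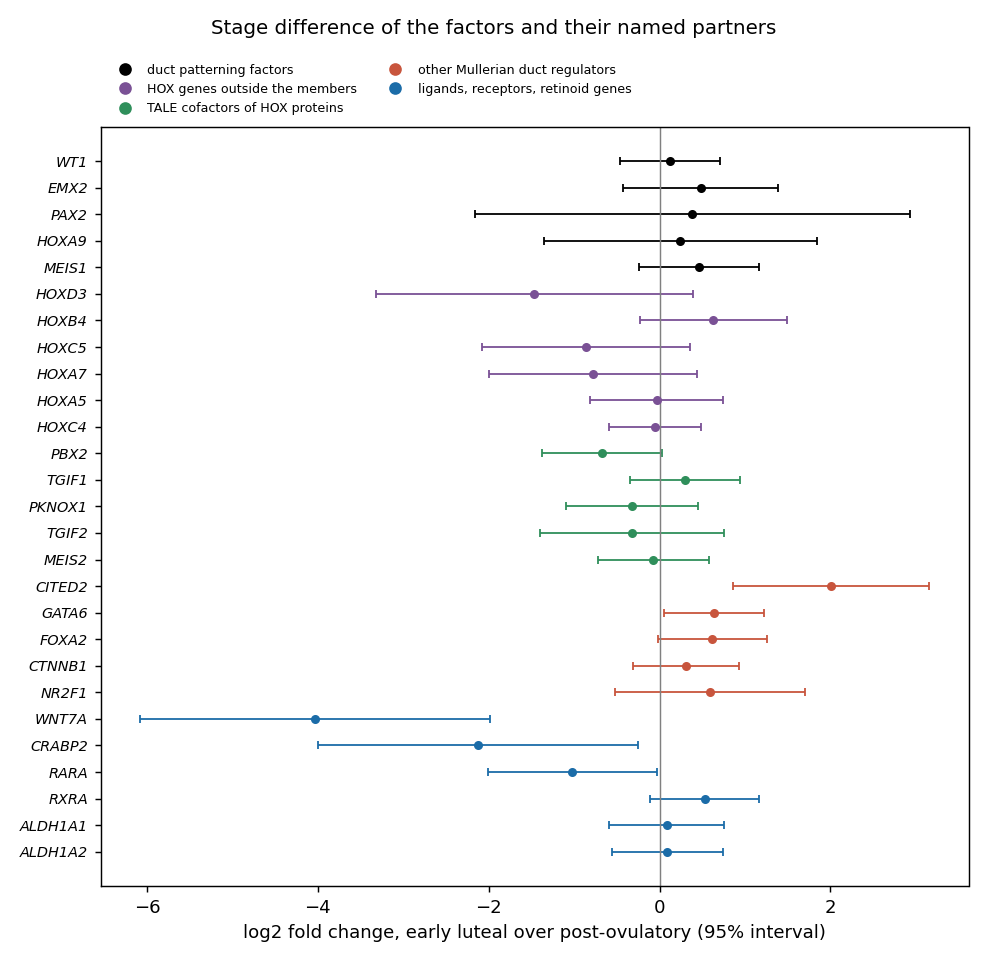
Log2 fold change, early luteal over post-ovulatory, with its 95% interval (edgeR, n = 3 a stage, not adjusted for the number of genes) for the 5 tested factors (black) and the named partner genes by list (colours). All 5 black intervals cross 0, that of PAX2 being the widest among them; WNT7A lies farthest to the left and CITED2 farthest to the right.

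Genes with a pattern most like each factor were sought among the genes with a symbol and a mean of at least 1 CPM, by the mean absolute difference in centred log2 CPM over the 6 libraries. For WT1 these were ZRSR2 and ZNF605, at mean differences of 0.028 and 0.036, where the median gene differed by 0.42. For MEIS1 they were KAT6B and DST (0.056 and 0.063, median 0.51), for HOXA9 USP2 and MECOM (0.074 and 0.096, median 0.50), and for EMX2 the translation genes EIF3M and RPS24 (0.056 and 0.062, median 0.59). The HOXA9 pattern rests on 4 to 36 counts per library, so its likeness to USP2 and MECOM is limited by counting error. PAX2 had no gene as near: its closest, NPTX1 and BTNL9, differed by 0.57 and 0.67 on average (median 1.56). NPTX1 stood at 6.32, 32.4 and 24.7 CPM across post-ovulatory libraries and 3.79, 33.8 and 60.3 CPM across early luteal ones. It was low in the same pair of libraries as PAX2, which follows from its choice by likeness.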

How the data were processed

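Ampulla RNA selected for polyadenylated tails was read as stranded paired-end libraries, per the labels' protocols. The submitters' processing notes name FastQC 0.11.4, Trim Galore, the STAR aligner and Sscrofa11.1; how reads were counted, on which strand and with which annotation is not given in the sources used here. The authors deposited raw counts per Ensembl gene. The header lacks a tab, so each column was matched to its sample by header order, with 1 misspelt name (early luteal replicate 3). Symbols came from an identifier table (15623 matches) and coordinates from RefSeq (Sscrofa11.1).

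CPM values used TMM scaling. Stages were compared by edgeR's quasi-likelihood method (edgeR 4.0.16, R 4.3.3, robust, filterByExpr), two-sided, adjusted by Benjamini-Hochberg over all tested genes, threshold 0.05. The SE of a log2 fold change is its size divided by the root of F. Scores used log2 CPM (prior count 2). Scripts were tested on simulated data. Alternatives were RLE or upper quartile scaling, library totals alone, no filter or 1 CPM in 3 libraries, a replicate block, DESeq2 1.42.0, limma voom (limma 3.58.1) and each library left out. The genes and lists were chosen with earlier results of these data known. Single marker genes of cell types, such as COL1A1, were named outside the rule that follows. Named genes were the 9 factors, up to 4 tested genes of lowest p and the 2 of highest mean CPM in each of 4 partner lists, and the 2 genes nearest in pattern to each tested factor; 1 of them is not reported here, and HOXC8, HOXC9, HOXC13, HOXD9, HOXD10, EMX1, EYA1 and LHX9 were named after their values were seen.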

Additional observations from a re-analysis of the deposited data

How the results depend on the processing

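Over the 14 alternatives WT1 and MEIS1 kept a positive log2 fold change (0.024 to 0.24 and 0.26 to 0.62), as did HOXA9 (0.020 to 0.62) in the 13 in which it was tested; it did not pass the filter of 1 CPM in 3 libraries. None of the 5 tested factors passed in any. Leaving out 1 library gave -0.055 to 0.79 for EMX2 and -1.49 to 1.27 for PAX2, and PAX2 was -0.27 with the replicate number as a block and -0.59 in limma voom. Correlations of same-numbered deviations were 0.052, -0.082 and 0.13, against -0.16 to 0.063 for differently numbered libraries. With 3 libraries a stage, these values cannot settle whether replicate numbers pair the libraries. The block changed no call, and the number called stayed at 0. For PAX2 the SE was 0.53 with the block and 1.11 without it. Without a filter on low counts 8 of all genes were called and in DESeq2 175, with 1 in each of the lists of other regulators (CITED2) and of ligands and retinoid genes (WNT7A). Leaving out 1 library gave -0.36 to 2.21 for the HOXA10 to HOXA9 ratio and -0.82 to 0.69 for HOXA11 to HOXA9, which was 0.073 with a pseudocount of 5. With the median of the other regulators at 0.15, leaving out 1 library gave -0.14 (without post-ovulatory replicate 1) to 0.42 (without early luteal replicate 1). Partner genes near 0 changed sign on leaving out 1 library: HOXA5 (-0.28 to 0.16), HOXC4 (-0.16 to 0.033), MEIS2 (-0.31 to 0.061), TGIF2 (-0.62 to 0.036), ALDH1A1 (-0.068 to 0.30) and ALDH1A2 (-0.057 to 0.28). The cause of these changes was not tested. Depth limits LHX1, HOXA9, HOXA10 and HOXA11, whose counts were 36 or fewer in every library.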

Other observations

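HOXC8 and HOXC9, trunk HOX genes of the C cluster, varied within the early luteal stage more than between the stages; both were singled out after their values were seen. HOXC8 stood at 23.6, 17.8 and 19.8 CPM in post-ovulatory and at 4.76, 43.4 and 40.9 CPM in early luteal replicates (edgeR adjusted p = 0.860). HOXC9 had 0.818, 0 and 0.255 CPM in post-ovulatory and 0.0643, 2.16 and 1.99 CPM in early luteal replicates (edgeR adjusted p = 0.769). Early luteal replicate 1 was low in HOXC8, in PAX2 and in the smooth muscle score of -1.81; the relation was not tested.

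Early luteal replicate 2 also held reads of 2 duct regulators that were at or near 0 elsewhere. EYA1, a transcriptional cofactor, stood at 3.503 CPM there and at 0.191 CPM or less in the other 5 libraries, and the LIM-homeobox gene LHX9 at 2.69 CPM against 0.129 CPM or less.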
